A study of Mus musculus with 6 samples.

Results

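The genes described here are 39 interferon-stimulated genes other than the large interferon-inducible GTPase families, measured by RNA-Seq in the tibialis anterior (TA) muscle of old mice. They were chosen by name, as gene symbols listed in the TPM tables and joined by gene identifier to the table of raw counts. All 39 were found, of 45777 genes in the count table and 16800 genes in the TPM tables, and all 39 passed the filter on low counts together with 16188 genes in all. The rule used no measured value, but the list was chosen with earlier results of these data known. Ifi47 belongs by sequence to the immunity-related GTPases, although it stands in this list, so counts are also given without it.

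The study asked whether pharmacological targeting of the phosphatase DUSP22 protects skeletal muscle from wasting. The vehicle group was 3 male C57BL/6J mice given vehicle alone, a mixture of DMSO and a Tween detergent. The BML-260 group was 3 male C57BL/6J mice injected intraperitoneally with 5 mg/kg of BML-260, a small molecule reported to inhibit DUSP22. Treatment lasted 1 month in both groups, and the labels give the age of all 6 mice as 24 months. The study's text gives ages for its old mice that differ from the labels and from each other. There was no young group and no interferon-treated group, so the values describe old muscle and no induced response. Each library came from the whole TA of 1 mouse, and fewer cells of a type and less RNA per cell cannot be told apart in such samples.

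Interferons are secreted proteins that are released when a cell senses viral or displaced nucleic acid. Type I interferons bind IFNAR1 and IFNAR2, and the kinases JAK1 and TYK2 then phosphorylate STAT2, which takes part with IRF9 in the complex ISGF3. ISGF3 binds interferon-stimulated response elements (ISRE) in promoters, while interferon gamma acts mainly through gamma-activated sites (GAS). The genes switched on in this way sense RNA and DNA, block viral entry and replication, tag proteins with the ubiquitin-like protein ISG15 and feed back on the pathway. In skeletal muscle this program is best known from inflammatory myopathies, and muscle fibers, endothelial cells and leukocytes can all express it.

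The libraries held between 39522890 and 56998875 counts. Muscle fiber genes were abundant in every library. The summed level of 10 of them was between 7522550 and 11928200 normalized counts, a count divided by the size factor of its library. The lowest sum, and the lowest level of 8 of the 10 genes, were those of vehicle replicate 3, and 0 of the 10 were called in edgeR. Vehicle replicate 3 stood apart, with a Pearson correlation of log2 expression across genes of 0.940 to 0.948 with the other libraries, which correlated at 0.972 or more with each other. This library had the highest level of 12 of 12 macrophage markers and of 6 of 6 tested neutrophil markers. The summed macrophage markers were between 6660 and 19436 normalized counts in the vehicle libraries and between 4089 and 5058 with BML-260, and 9 of 12 were lower by 1.3-fold or more at p under 0.05 before adjustment (8 of 12 without vehicle replicate 3). The summed neutrophil markers were between 414 and 8513 in the vehicle libraries and between 116 and 243 with BML-260, and Ly6g, a defining neutrophil gene, had counts in vehicle replicate 3 alone. Lymphocyte and NK cell markers stayed low, with sums of 33.1 to 77.9 over 12 genes, and those of plasmacytoid dendritic cells, potent interferon producers, were 12.7 to 55.2 over 5 genes. Of 7 endothelial markers 0 were called in edgeR (0 also at a p under 0.05 before adjustment), and of 7 fibroblast markers Col1a1 was called lower. Without vehicle replicate 3 Col1a1 was not called, while Col3a1 was called lower (-0.39 on the log2 scale) and Pi16 higher (0.56). The part of these cell markers in the results below was not tested.

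Promoter sequence was searched for the letters of the ISRE and GAS elements, in RefSeq windows from 250 bases before to 50 bases after an annotated start. In assembly GRCm38.p6, the build mm10 used by the authors, 38 such windows were matched for 31 of the 39 genes. Dhx58, Ifi27, Oas2, Parp14, Parp9, Rtp4, Usp18 and Zbp1 were not among them. The ISRE core was searched on both strands as GAAANNGAA and the GAS core as TTCNNNGAA, which reads the same on both strands, and overlapping matches were kept. The ISRE core occurred in 15 of 38 member windows (39.5%) and in 8.56% of all 32851 windows. The GAS core occurred in 9 of 38 member windows (23.7%) and in 8.30% of all windows. A match describes letters only and is not evidence that a factor binds there. The 6 genes below are those with an ISRE core match and the smallest p-values between the groups. For each, 100 bases around the matches are shown 5′ to 3′ on the strand of the gene, with ISRE core matches in capitals (TTCNNTTTC is the core read on the opposite strand).
Ifitm3 (chr7:141010715-141010814, minus strand): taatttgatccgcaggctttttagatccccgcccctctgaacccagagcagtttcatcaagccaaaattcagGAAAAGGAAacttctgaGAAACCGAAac
Bst2 (chr8:71537546-71537645, minus strand): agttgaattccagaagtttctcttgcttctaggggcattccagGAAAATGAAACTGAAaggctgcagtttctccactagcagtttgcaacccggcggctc
Trim30a (chr7:104465175-104465274, minus strand): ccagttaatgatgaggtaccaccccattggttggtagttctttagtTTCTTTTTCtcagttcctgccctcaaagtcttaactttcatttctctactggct
Ifi44 (chr3:151749881-151749980, minus strand): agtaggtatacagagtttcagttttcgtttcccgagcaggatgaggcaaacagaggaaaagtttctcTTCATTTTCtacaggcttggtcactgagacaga
Oas1a (chr5:120907496-120907595, minus strand): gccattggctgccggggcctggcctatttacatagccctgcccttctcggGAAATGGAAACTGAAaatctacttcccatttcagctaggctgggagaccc
Isg15 (chr4:156200837-156200936, minus strand): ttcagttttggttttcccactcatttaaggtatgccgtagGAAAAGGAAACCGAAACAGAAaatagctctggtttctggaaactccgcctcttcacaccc
These 6 did not move together: the first 4 had lower mean counts with BML-260, and Oas1a and Isg15, with 2 and 3 overlapping cores each, had higher ones. In Ifitm3 both cores lay after the start, at bases 3 to 11 and 20 to 28, while those of Isg15 lay from 78 to 58 bases before it and the pair in Oas1a from 20 to 6 bases before it. Ifit1 and Ifit3 also held 3 matches each. The 14 genes with an ISRE core in a window had a median log2 fold change of -0.18, with 10 lower and 4 higher, and the 17 genes with a window but no such core had a median of -0.20, with 12 lower and 5 higher. The 9 genes with a GAS core had a median of -0.21, with 8 lower and 1 higher, and the 22 without one had a median of -0.088, with 14 lower and 8 higher. Of the 3 members called below, Oas2 and Zbp1 had no window and are in none of these classes, and the window of Ifi47 held neither core. These are descriptions, and the differences were not tested. The neighbors Dtx3l and Parp9, which encode partners in a complex, are transcribed in opposite directions from starts so close that their RefSeq spans share 558 bases on chromosome 16. The Dtx3l window reached only 50 bases into this shared stretch, and Parp9 had no window. The rest of the 558 shared bases was therefore not searched for this pair. The 100 bases before the Dtx3l start, which lie outside the shared stretch, held neither core.
Dtx3l (chr16:35939028-35939127, minus strand): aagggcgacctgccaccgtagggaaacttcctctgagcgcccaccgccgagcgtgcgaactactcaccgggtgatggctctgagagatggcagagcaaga

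BML-260 treatment left the interferon-stimulated genes with small differences for the most part, and the 3 that passed the test were lower. Ifi47, Oas2 and Zbp1, 3 of the 39 genes, differed by 1.3-fold or more at p under 0.05 (before adjustment) in edgeR's quasi-likelihood test, the rule used throughout for a call, and all 3 were lower with BML-260. Across all genes tested 5.75% passed this rule in either direction and 4.86% were lower, so the share of the members, 7.69%, lay near the background. Without Ifi47 it was 2 of 38 (5.26%). None of the 39 had a Benjamini-Hochberg adjusted p under 0.05 in edgeR, DESeq2 or limma, and 5 had an unadjusted edgeR p under 0.05. Of the members 28 had a lower fitted level and 11 a higher one, and their median log2 fold change of -0.20 stood beside -0.004 over all genes tested, of which 50.5% were lower.

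The direction depended in part on vehicle replicate 3. It held the highest value of 18 of the 39 members (46.2%) and of 31.8% of all genes tested, and without it the median of the members was -0.077, with 23 genes lower and 16 higher. Without vehicle replicate 2 the calls rose from 3 to 6, namely Ifi47, Oas2, Zbp1, Ifitm3, Irf1 and Parp14. The share over all genes tested rose as well, from 5.75% to 7.22%. Ifi47 and Oas2 passed under every alternative run, and Zbp1 missed the rule when vehicle replicate 1, vehicle replicate 3, BML-260 replicate 2 or BML-260 replicate 3 was left out.

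**Figure D1:**
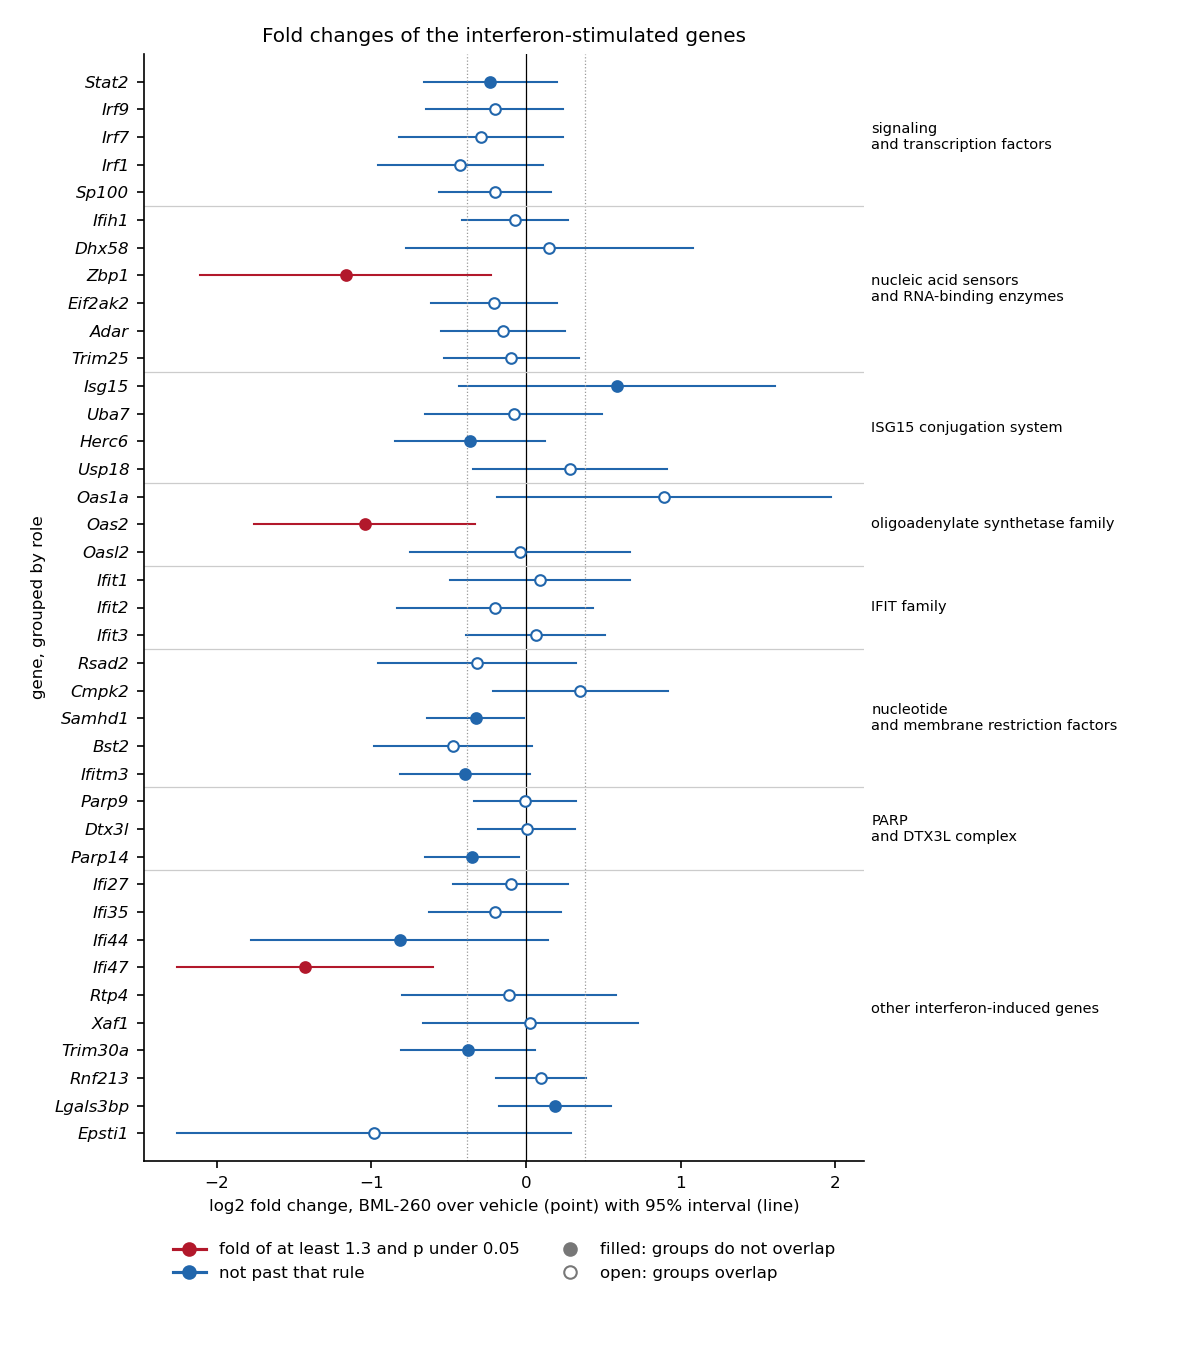
Log2 fold change of each member, BML-260 over vehicle (horizontal axis), by role (vertical axis), with its 95% interval as a line; red marks a fold of at least 1.3 with p under 0.05, filled points mark groups that do not overlap, and dotted lines mark the 1.3-fold limits. Only Zbp1, Oas2 and Ifi47 are red, and most intervals span 0.

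Of the 36 members not called, 34 had a 95% interval of the log2 fold change that contained 0. For 31 the interval lay within 1 log2 unit of 0, and for 5 within 0.5.

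Counting genes by the order of their libraries gave a larger set. In 12 of 39 members (30.8%) the vehicle and BML-260 libraries did not overlap, against 12.2% of all genes tested. Lower with BML-260 without overlap were 10 of the 39 members, against 1092 of all 16188 genes tested (6.75%). The 10 were Stat2, Zbp1, Herc6, Oas2, Samhd1, Ifitm3, Parp14, Ifi44, Ifi47 and Trim30a, and the higher ones were Isg15 and Lgals3bp. On TPM the groups of Stat2, Ifitm3, Isg15 and Lgals3bp overlapped, and those of Bst2, Sp100, Ifi27 and Usp18 did not. The summed normalized count of all 39 was 13066, 12740 and 14039 in vehicle replicates 1, 2 and 3 and 12077, 12185 and 11988 in the BML-260 replicates, so the vehicle libraries lay above the others in sum.

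**Figure D2:**
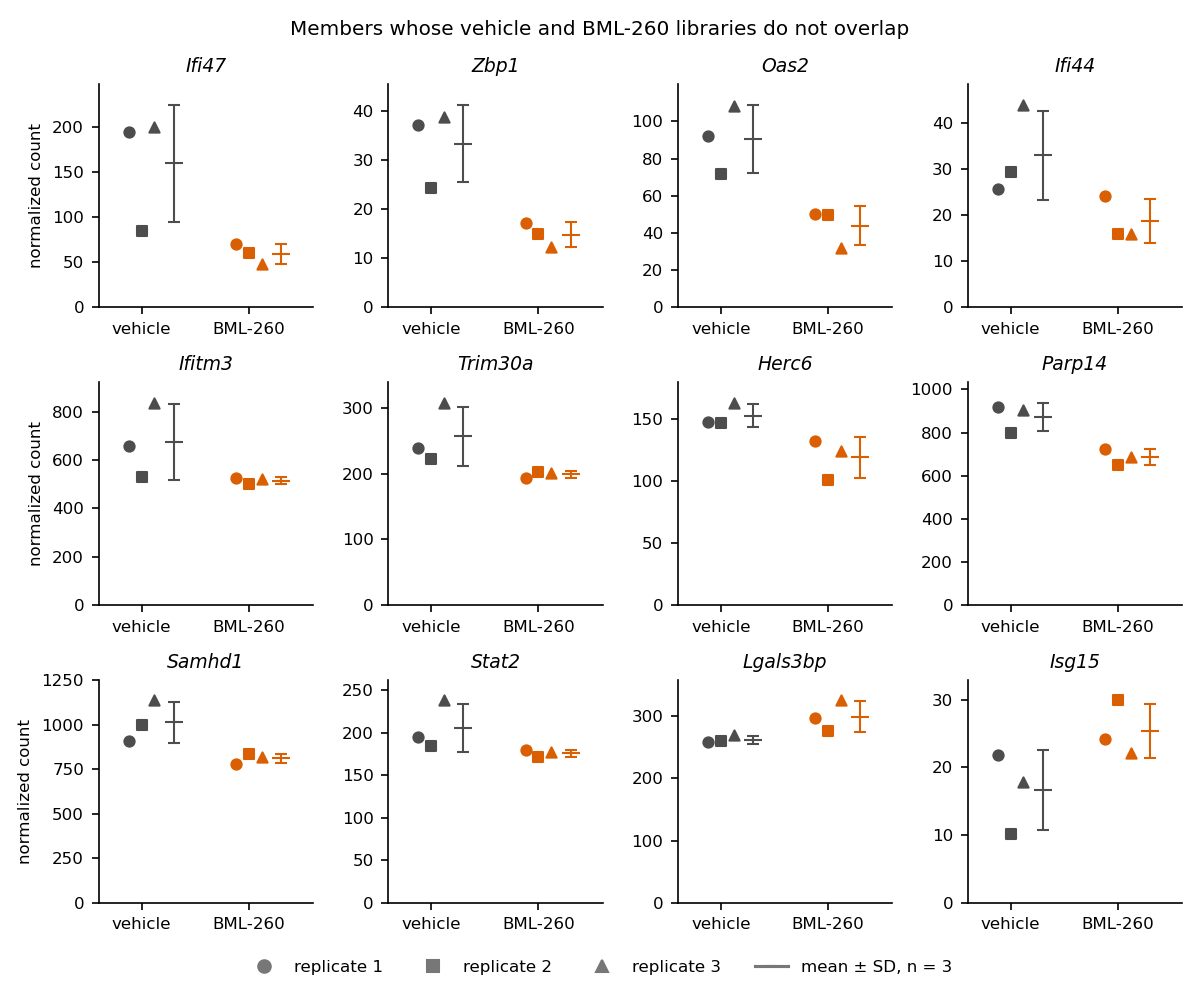
Normalized counts (vertical axis, from 0) of the 12 members whose groups do not overlap, for each of the 3 vehicle (gray) and 3 BML-260 (orange) libraries, with the mean and SD beside them. Isg15 and Lgals3bp are higher with BML-260 and the other 10 are lower, with the lowest log2 fold changes in Ifi47, Zbp1 and Oas2.

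The signaling and transcription factors were all lower in mean count, and none was called. Stat2, the ISGF3 subunit specific to type I and type III interferon, had 195, 185 and 238 normalized counts in the vehicle libraries and 179, 172 and 178 with BML-260. The groups did not overlap, but vehicle replicate 2 lay close to the treated libraries and the log2 fold change was -0.23 (SE 0.19, adjusted p = 0.796 in edgeR). Without vehicle replicate 3 it was -0.11. Irf1, a factor induced by interferon gamma that drives antigen presentation genes, had 480.4, 282 and 513 counts with vehicle and 343, 290.2 and 320.4 with BML-260. Its vehicle replicate 2 was below all treated libraries and the groups overlapped, with a log2 fold change of -0.42 (SE 0.23). The other 3 had overlapping groups. Irf9, the DNA-binding subunit of ISGF3, ranged from 227 to 290.2 counts with vehicle and from 209.5 to 273 with BML-260 (log2 fold change -0.20, SE 0.19). Irf7, the amplifier of interferon transcription, ranged from 119 to 145 and from 94.9 to 124, where only BML-260 replicate 3 reached the vehicle range (-0.29, SE 0.23). Sp100, a component of nuclear bodies, ranged from 367 to 443 and from 329 to 387 (-0.20, SE 0.16).

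Among the nucleic acid sensors and RNA-binding enzymes, Zbp1 was called and the other 5 lay close to 0. Zbp1, which binds left-handed Z-form nucleic acid and can trigger necroptosis, spans positions 173206612 to 173218959 of chromosome 2. It had 37.1, 24.3 and 38.7 normalized counts with vehicle and 17.2, 14.96 and 12.3 with BML-260. All treated libraries were below all vehicle libraries, at a low level in which a few counts matter. The mean fell from 33.4 ± 7.93 to 14.8 ± 2.49 (SD, n = 3 each), a log2 fold change of -1.17 (SE 0.41, adjusted p = 0.783 in edgeR).

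The other sensors showed no such separation. Ifih1, which encodes the long double-stranded RNA sensor MDA5, had 471, 533 and 599.7 counts with vehicle and 539.8, 484 and 506 with BML-260, and its log2 fold change of -0.07 had a 95% interval of -0.41 to 0.27. Dhx58, the RIG-I-like helicase LGP2 that modulates MDA5, stood at 0.15 (interval -0.78 to 1.08), on 17.1 to 34.3 counts a library. Eif2ak2, the kinase PKR that halts translation on double-stranded RNA, ranged from 310.4 to 400.1 counts with vehicle and from 267 to 335 with BML-260 (log2 fold change -0.21, SE 0.18). Adar, the enzyme that edits adenosine in double-stranded RNA and so hides self RNA from the sensors, ranged from 234 to 293 and from 222 to 259 (-0.15, SE 0.18). Trim25, a ubiquitin ligase of the RIG-I pathway, was more scattered with vehicle, at 401 to 659 counts, than with BML-260, at 489 to 503 (-0.09, SE 0.19). In all 6 genes of this group vehicle replicate 3 held the highest count.

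The ISG15 conjugation system was split. Isg15, the ubiquitin-like modifier that is among the most strongly interferon-induced genes, had 21.9, 10.2 and 17.9 normalized counts with vehicle and 24.1, 29.9 and 22.1 with BML-260. The treated libraries were all above the vehicle libraries, but only just above vehicle replicate 1, and the log2 fold change was 0.59 (SE 0.45, 95% interval -0.43 to 1.61, adjusted p = 0.793 in edgeR). Herc6, the ligase that attaches ISG15 to proteins in the mouse, went the other way without overlap, with 147, 147 and 163 counts against 132, 101 and 124 and a log2 fold change of -0.36 (SE 0.21, adjusted p = 0.788 in edgeR). Uba7, the activating enzyme of the cascade, ranged from 144 to 194 counts with vehicle and from 119 to 201 with BML-260, with a log2 fold change of -0.08 (SE 0.25). Usp18, the protease that removes ISG15 and also damps IFNAR2 signaling, had 87.5, 86.9 and 57.4 counts against 105, 89.8 and 87.2 and stood at 0.29 (SE 0.27). BML-260 replicate 3 lay just under vehicle replicate 1, and without the low vehicle replicate 3 the log2 fold change was 0.11.

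Members of the oligoadenylate synthetase family, whose products activate RNase L after binding double-stranded RNA, had opposite signs. Oas2, at positions 120730333 to 120749886 of chromosome 5, had 92.3, 71.5 and 108 normalized counts with vehicle and 50.01, 49.9 and 31.9 with BML-260. The lowest vehicle library exceeded the highest treated one, and the mean fell from 90.6 ± 18.3 to 43.9 ± 10.4 (SD, n = 3 each), a log2 fold change of -1.04 (SE 0.31, adjusted p = 0.699 in edgeR). Leaving out each library in turn gave -1.19 to -0.86. Oas1a, in the same cluster of chromosome 5, had 19.0, 19.2 and 14.9 counts with vehicle and 18.1, 48.9 and 31.9 with BML-260. Its groups overlapped, since BML-260 replicate 1 lay among the vehicle libraries, and the log2 fold change was 0.89 (SE 0.47, adjusted p = 0.788 in edgeR). Without BML-260 replicate 1 it was 1.19 and past the rule. Oasl2, a family member with ubiquitin-like domains, ranged from 63.9 to 83.7 counts with vehicle and from 57.7 to 99.7 with BML-260, which enclosed the vehicle range (-0.04, SE 0.31).

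Ifit1, Ifit2 and Ifit3 encode tetratricopeptide repeat proteins that bind viral RNA lacking self marks, and they are among the genes most often used to score a type I interferon response. Ifit1 had 115, 72.8 and 96.1 normalized counts with vehicle and 103, 95.7 and 106 with BML-260, a log2 fold change of 0.09 with a 95% interval of -0.49 to 0.67. Ifit3 had 221, 184 and 227 counts against 246, 232 and 183, with a log2 fold change of 0.06 and an interval of -0.39 to 0.51. In both the treated libraries lay inside or around the vehicle range. Ifit2 ranged from 210.3 to 485 in the vehicle libraries and only from 285 to 306 with BML-260, and its log2 fold change changed from -0.20 to 0.15 without vehicle replicate 3. Reads of this family can be shared between copies: Ifit3b, a close copy of Ifit3, had 279, 124 and 78.2 counts with vehicle and 304, 330.1 and 231 with BML-260 (log2 fold change 0.84, SE 0.42), and the RefSeq span of Ifit1bl1 covers that of Ifit1.

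None of the nucleotide and membrane restriction factors was called, and 4 of these 5 genes had a lower fitted level. Samhd1, which depletes the deoxynucleotides that viruses need, had 909, 998 and 1137 normalized counts with vehicle and 780.4, 834 and 818 with BML-260. The groups did not overlap, and the log2 fold change of -0.33 (SE 0.14, adjusted p = 0.788 in edgeR) missed the 1.3-fold limit, which it passed at -0.40 without vehicle replicate 1. In that setting 13.3% of all genes tested passed the rule. Ifitm3, a membrane protein that blocks fusion of entering viruses, had 657, 527 and 837 counts against 524, 499.7 and 519. Its vehicle replicate 2 was only just above the treated libraries, and the log2 fold change of -0.39 (SE 0.18, adjusted p = 0.788 in edgeR) became -0.21 without vehicle replicate 3.

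Bst2, the tetherin that holds budding virions at the cell surface, had the lowest log2 fold change of these 5 genes. Its counts were 208, 190.3 and 158 with vehicle and 117, 126 and 159.6 with BML-260, and only vehicle replicate 3 and BML-260 replicate 3 overlapped. The log2 fold change was -0.47 (SE 0.22, adjusted p = 0.788 in edgeR) and became -0.58, past the rule, without vehicle replicate 3. Rsad2, the radical enzyme viperin that makes a chain-terminating nucleotide, had 142, 284 and 273 counts against 162, 192 and 206 and stood at -0.32 (SE 0.28). Its low vehicle library was replicate 1, without which it was called at -0.57, in a setting where 13.3% of all genes tested were called. Its neighbor Cmpk2, the mitochondrial kinase that supplies viperin with nucleotide, is separated from it by 12664 bases on chromosome 12. Cmpk2 had 89.4, 119 and 81.9 counts against 125, 137 and 108, so that only vehicle replicate 2 reached the treated range, and stood at 0.35 (SE 0.25). These neighbors thus had opposite signs, with both intervals spanning 0.

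In the PARP and DTX3L group none of the 3 genes was called, and Parp14 was the one without overlap between the groups. Parp14, a mono-ADP-ribosyltransferase of macrophages and lymphocytes among other cells, had 917, 796 and 904 normalized counts with vehicle and 724, 649 and 685 with BML-260. No library overlapped, and the log2 fold change of -0.35 (SE 0.13, adjusted p = 0.788 in edgeR) lay short of the fold limit. Its value ranged only from -0.41 to -0.31 when single libraries were left out. Parp9 and the ubiquitin ligase gene Dtx3l, whose products act together on histones, had log2 fold changes of -0.01 (95% interval -0.34 to 0.32) and 0.00 (interval -0.31 to 0.32). Their spans overlap, and whether the counting used strand is not given in the sources used here, so some of their reads may not be told apart.

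The remaining 10 interferon-induced genes included the lowest fold change of the list. Ifi47, an immunity-related GTPase that acts at the membranes of vacuoles, spans positions 49076587 to 49096987 of chromosome 11. It had 194, 84.3 and 199.7 normalized counts with vehicle and 69.8, 59.8 and 47.9 with BML-260. The treated libraries were all below the vehicle libraries, among which replicate 2 was far below the other two. The mean fell from 159 ± 65.1 to 59.2 ± 11.0 (SD, n = 3 each), a log2 fold change of -1.43 (SE 0.36, adjusted p = 0.631 in edgeR), and leaving out single libraries gave -1.73 to -1.24.

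Ifi44 and Trim30a were also lower without overlap. Ifi44, a cytosolic protein of uncertain function, had 25.7, 29.4 and 44.0 counts with vehicle and 24.1, 15.96 and 15.96 with BML-260 (log2 fold change -0.82, SE 0.42, adjusted p = 0.788 in edgeR). Trim30a, a tripartite motif protein that damps Toll-like receptor signaling, had 239.7, 222 and 308 counts against 193, 202 and 201 (log2 fold change -0.37, SE 0.19, adjusted p = 0.788 in edgeR). In both, vehicle replicate 3 was well above the other vehicle libraries, and without it the log2 fold changes were -0.55 and -0.22.

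Lgals3bp, a secreted glycoprotein that binds galectins, was the gene of this role with all treated libraries higher. It had 258, 259 and 269.7 counts with vehicle and 297, 275 and 325 with BML-260, a log2 fold change of 0.19 (SE 0.16, adjusted p = 0.798 in edgeR). Epsti1 was the most scattered member, with 34.2, 74.1 and 73.0 counts against 31.0, 11.0 and 50.3, so that a log2 fold change of -0.98 had an SE of 0.56. Without BML-260 replicate 3 it was -1.51 and past the rule. Rnf213, the giant ubiquitin ligase whose variants predispose to moyamoya disease, had the highest counts of the list, 2207 to 2446 with vehicle and 2363 to 2592 with BML-260, and a log2 fold change of 0.10 (interval -0.20 to 0.39). The last 4 genes had overlapping groups. Ifi35, a leucine zipper protein that can act as a danger signal, ranged from 298 to 435 counts with vehicle and from 304 to 355 with BML-260 (log2 fold change -0.20, SE 0.19). Rtp4, a chaperone of receptors that also binds RNA, ranged from 94.5 to 135 and from 71.2 to 137 (-0.11, SE 0.30). Xaf1, an antagonist of the apoptosis inhibitor XIAP, ranged from 65.6 to 78.2 and from 58.8 to 99.2 (0.03, SE 0.30). Ifi27 ranged from 752 to 1027 and from 838 to 943, with its lowest value in vehicle replicate 3 (-0.10, SE 0.16). The whole RefSeq span of Ifi27, 6057 bases, lies within that of its relative Ifi27l2a, so its reads are uncertain.

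**Figure D3:**
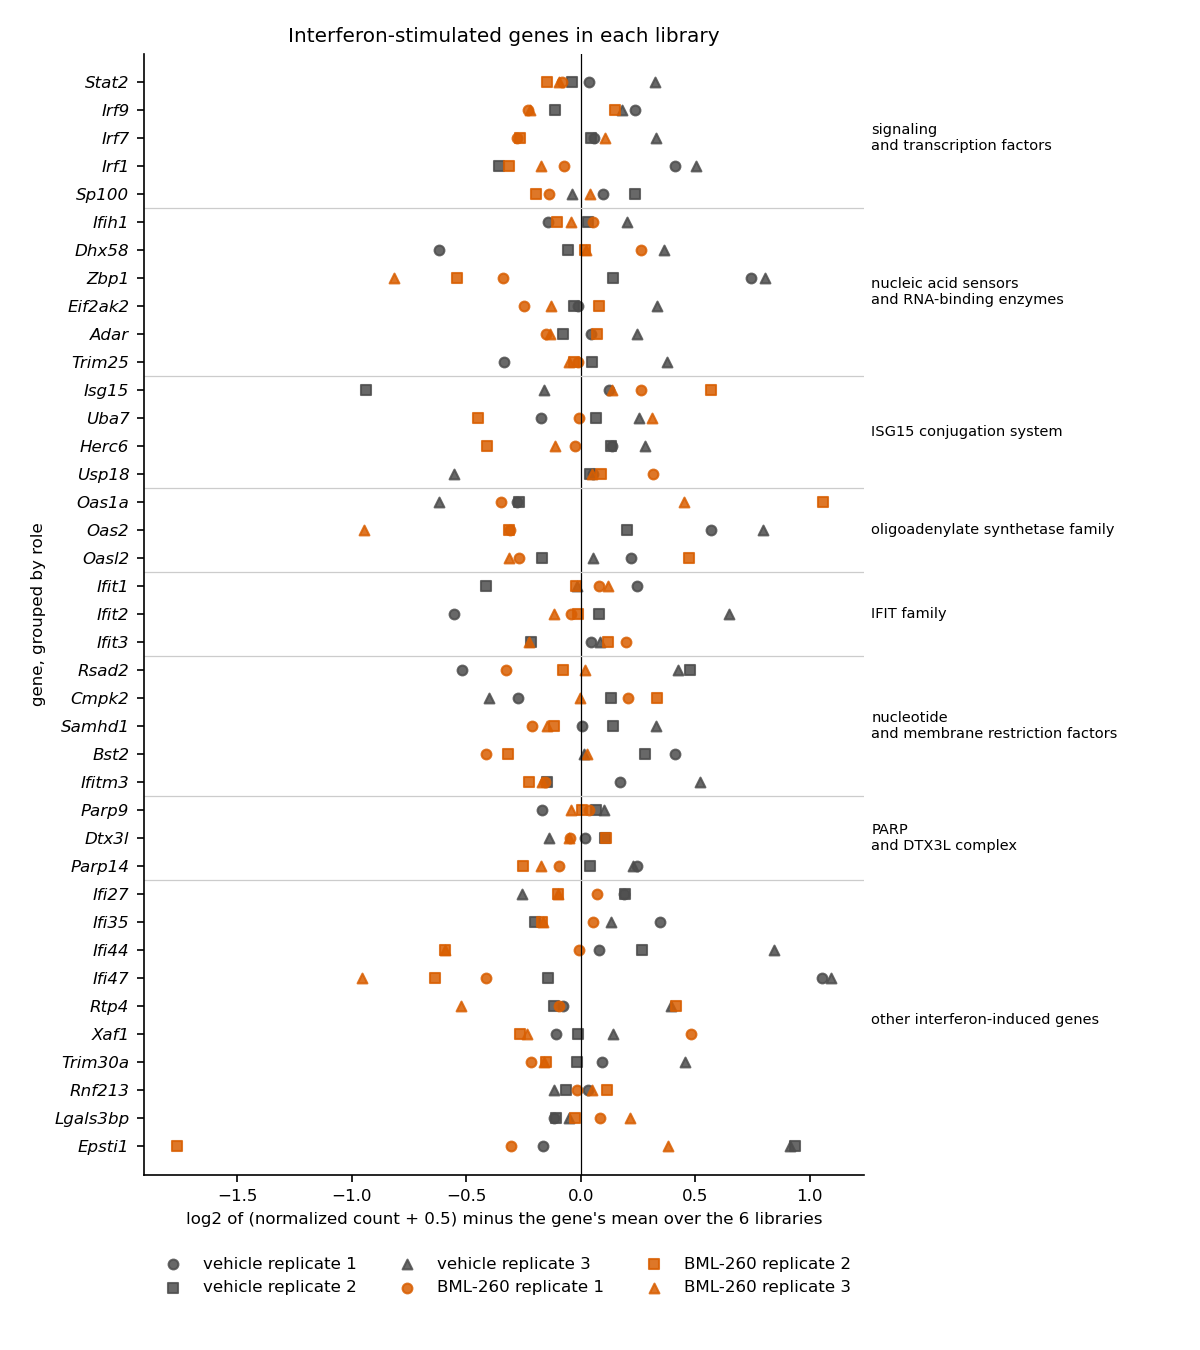
Log2 of the normalized count plus 0.5 in each of the 6 libraries, relative to the mean of the gene (horizontal axis), for the 39 members by role (vertical axis); gray marks vehicle, orange BML-260, and the shape the replicate. Vehicle replicate 3 (gray triangle) is the rightmost point of 18 genes, and most points lie within 0.5 of 0.

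Per-length levels were low for most members. TPM, which scales counts for transcript length and library total, averaged at least 10 over the 6 libraries in 2 genes, from 5 to under 10 in 7, from 1 to under 5 in 21 and under 1 in 9. Ifitm3 led with 42.2 ± 18.9 TPM in vehicle and 27.7 ± 1.46 TPM in BML-260 muscle (SD, n = 3 each), followed by Ifi27 with 34.4 ± 1.45 and 29.5 ± 0.145. Given that spread, and the uncertain reads of Ifi27, their order is not settled, and both stood above Ifi35, the third, with 10.7 ± 3.15 and 8.21 ± 0.171. At the low end were Ifi44 (0.467 ± 0.249 and 0.223 ± 0.0379), Dhx58 (0.423 ± 0.232 and 0.410 ± 0.0119), Oas2 (0.676 ± 0.332 and 0.266 ± 0.0614) and Oas1a (0.339 ± 0.0188 and 0.605 ± 0.313), whose ranges overlap. Isg15 stood at 0.855 ± 0.403 TPM in vehicle and 1.15 ± 0.227 TPM in BML-260 muscle.

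Upstream in the pathway, the ligand genes were too low to test, while most receptor and JAK-STAT genes were tested. Of 10 interferon ligand genes, 9 had 0 counts in all 6 libraries, where a count of 0 allows up to 3 counts a library, and Ifng had 2 counts in vehicle replicate 2 and 0 elsewhere. None of 10 tested receptor and JAK-STAT genes was called in edgeR (0 also at an unadjusted p under 0.05, and in DESeq2 0 past the rule), with a median log2 fold change of 0.07.

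Among the sensors and adaptors that induce interferon 2 of 14 genes were called, both lower. Tlr7, the endosomal receptor for single-stranded RNA, had 73.3, 134 and 188 counts against 34.5, 61.8 and 38.1 (log2 fold change -1.56, SE 0.40, adjusted p = 0.631 in edgeR). Tmem173, which encodes STING, the adaptor for cytosolic DNA, had 96.1, 80.5 and 145 against 62.9, 40.9 and 51.6 (log2 fold change -1.05, SE 0.32, adjusted p = 0.699). In both all treated libraries were lower. Both genes are also expressed in macrophages, of whose 12 markers 9 were called lower, and the part of these cells was not tested. Among 6 negative regulators only Socs3, an inhibitor of cytokine receptors, was called, at -2.74 (SE 0.90), with 215, 152 and 1807 counts with vehicle and 74.2, 87.8 and 167 with BML-260. Its groups overlapped, and without vehicle replicate 3 the log2 fold change was -0.76.

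Among paralogs and further interferon-stimulated genes 3 of 28 tested were called in edgeR, all lower, against 6 in DESeq2, of which 5 were lower. The 3 were Slfn2, a regulator of lymphocyte and monocyte quiescence (log2 fold change -1.54, SE 0.42), Ifitm1, a relative of Ifitm3 (-1.88, SE 0.78, called in 5 of 13 alternatives), and Ifi205, a member of the nucleic acid binding p200 family (-0.77, SE 0.28). The log2 fold changes of the 28 had a median of -0.22, with 22 below 0 and 6 above (-0.12 and 19 below 0 without vehicle replicate 3). The interferon-inducible GTPases, which restrict pathogens inside vacuoles and respond mainly to interferon gamma, had 14 of 18 genes called, all lower, with a median of -0.64 (9 of 18 and -0.48 without vehicle replicate 3). Iigp1, Tgtp1 and Tgtp2 had the smallest p-values among them, with log2 fold changes of -1.51, -1.51 and -1.38 (Tgtp1 and Tgtp2 are near-identical copies whose reads may be shared). Mx1 and Mx2, GTPases of the type I response added here after their values were seen, were not called, at -0.43 and 0.21. A difference by type of response was not tested. In MHC class I presentation, which shows peptides to cytotoxic T cells, 7 of 16 genes were called, all lower, with a median of -0.44 (6 of 16 and -0.29 without vehicle replicate 3), led by B2m (-0.53, SE 0.14), Nlrc5, the transactivator of class I genes (-0.70, SE 0.22), and H2-Q6 (-0.61, SE 0.19). Over all genes tested, 5.75% were called in edgeR, 6.31% in DESeq2 and 3.98% in edgeR without vehicle replicate 3. Of the 931 edgeR calls over all genes 786 were lower. The list counts stand side by side as descriptions, and the differences between the lists were not tested.

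**Figure D4:**
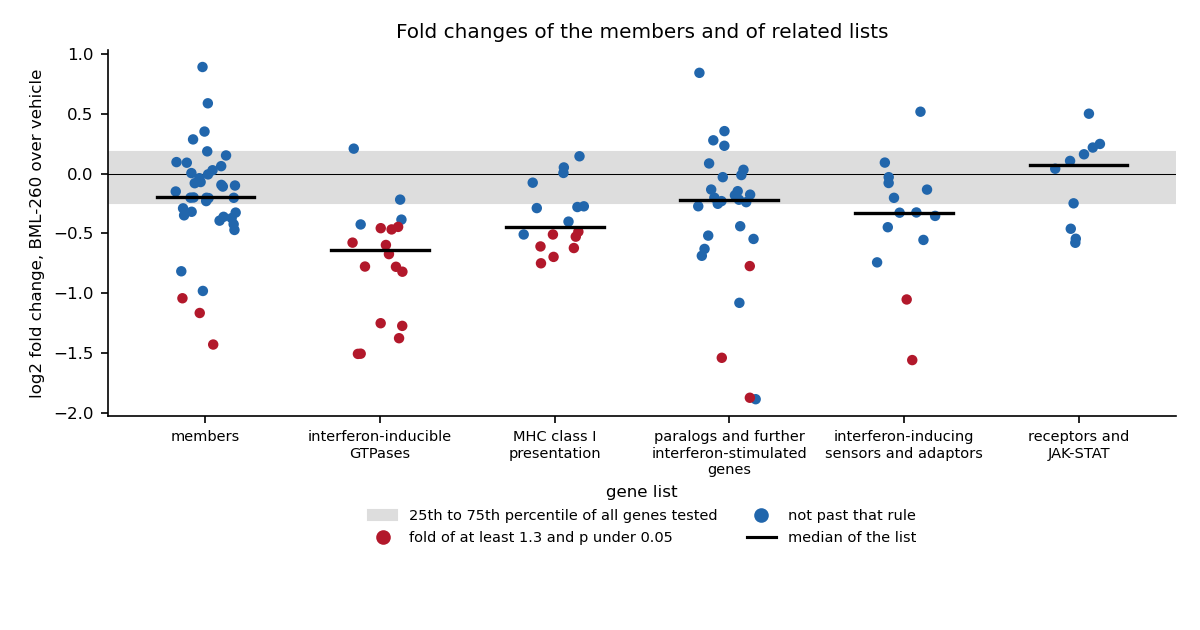
Log2 fold change, BML-260 over vehicle (vertical axis), of the tested genes of the members and of 5 related lists (horizontal axis); red points passed a fold of at least 1.3 with p under 0.05, black bars are list medians and the gray band spans the 25th to 75th percentile of all genes tested. The members' median of -0.20 lies inside the band, and those of the GTPases (-0.64), the MHC class I genes (-0.44) and the interferon-inducing sensors and adaptors (-0.33, but -0.079 without vehicle replicate 3) lie below it.

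The lists also differed in how far vehicle replicate 3 stood out. The GTPases summed to 11908, 10549.8 and 14896 normalized counts in vehicle replicates 1, 2 and 3 and to 7592, 7596 and 7023 in the BML-260 replicates. Macrophage markers summed to 6660, 6967 and 19436 with vehicle and to 5058, 4089 and 4814 with BML-260. Neutrophil markers summed to 2523, 414 and 8513 against 137, 116 and 243. The members spanned 12740 to 14039 within the vehicle group on this scale. In summed TPM they stood at 179.8, 158 and 265 in vehicle replicates 1, 2 and 3 and at 144, 158 and 157 in the BML-260 replicates, so that vehicle replicate 3 stood further out and vehicle replicate 2 lay among the treated libraries.

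**Figure D5:**
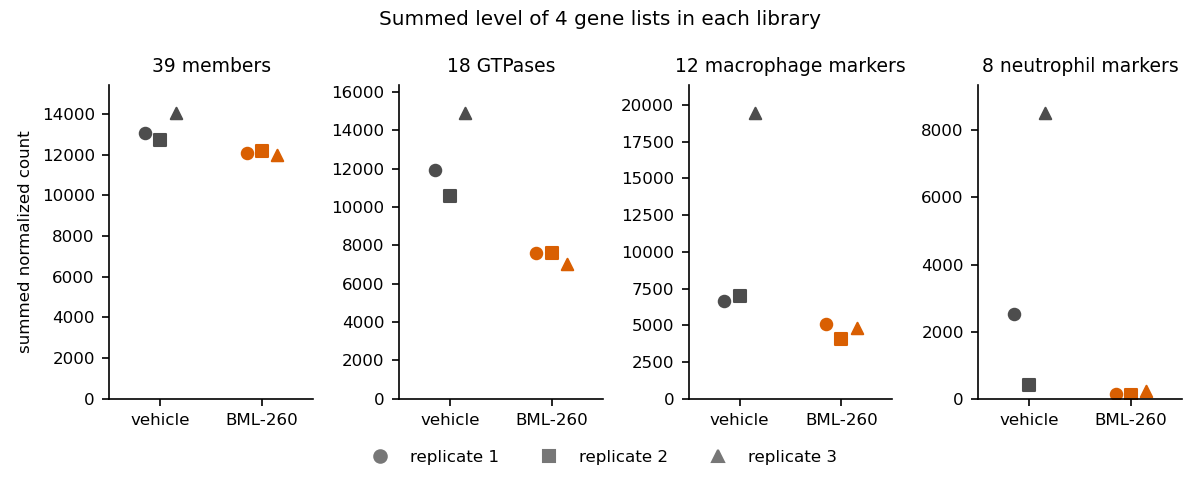
Summed normalized count (vertical axes, each from 0) of the 39 members, 18 interferon-inducible GTPases, 12 macrophage markers and 8 neutrophil markers in the 3 vehicle (gray) and 3 BML-260 (orange) libraries, with the shape marking the replicate. Vehicle replicate 3 is highest in every panel, at 19436 for macrophage markers and 14039 for the members.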

How the data were processed

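The authors sequenced total RNA of TA muscle from 3 vehicle and 3 BML-260 mice, with a stranded library kit. The submitters' processing notes name StringTie 2.1.3b, Trimmomatic 0.38, Bowtie2 2.3.4.1, HISAT2 2.1.0 and mm10; the annotation, the use of strand and the treatment of multi-mapped reads are not given in the sources used here. The authors deposited raw counts per gene without normalization, in 1 table, and TPM per gene for each library. Whether the animals shared cages, days or batches is not given, so p-values measure the spread between these libraries.

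Counts were analyzed in R 4.3.3 with edgeR 4.0.16 (filterByExpr, TMM, quasi-likelihood F-test) on all 16188 genes kept, which hold 99.95% of the counts, with Benjamini-Hochberg adjustment over all of them. The SE is the log2 fold change over the square root of F, and 95% intervals use its t quantile. Normalized counts are counts over DESeq2 1.42.0 size factors. A call is a 1.3-fold or larger difference at p under 0.05 before adjustment. Totals of 39522890 to 56998875 counts limit precision mainly for members under 50 counts, and intervals do not cover biological factors shared by a group. DESeq2, limma 3.58.1 on counts and on log2 TPM, other filters and scalings, a replicate block and leaving out each library were alternatives. The fits were tested on simulated data. The members, lists and tests were chosen with earlier results of these data known. Named genes were all members by role, with full statistics for those called or without overlap, and up to 3 called genes of each related list, plus close copies; 1 further gene of that rule is not reported here, and Mx1 and Mx2 were added after their values were seen. Protein sequences were not used here.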

Additional observations from a re-analysis of the deposited data

How the results depend on the processing

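Depth limits the rarest members (Isg15, Oas1a, Dhx58, Ifi44 and Zbp1), where a few counts move a fold change, and 3 libraries a group limit all of them. Members past the call rule numbered 3 or 4 under every alternative with all libraries and 2 to 6 when single libraries were left out (6 without vehicle replicate 2). The share of all genes past the rule varied too, from 2.65% to 6.53% with all libraries and from 3.00% to 13.3% without single libraries. None of the 39 had an adjusted p under 0.05 under any alternative. The median log2 fold change of the members stayed negative, from -0.27 to -0.12 with all libraries and from -0.22 to -0.077 without single libraries. The lower end, on log2(TPM + 0.1), stands beside a median of -0.14 for all genes, and the upper end is without vehicle replicate 3. Members without overlap numbered 11 or 12 under other filters and on TPM. On TPM they were partly other genes: Bst2, Sp100 and Ifi27 (lower) and Usp18 (higher) took the place of Stat2, Ifitm3, Isg15 and Lgals3bp. Without single libraries the members without overlap numbered 15 to 19, where fewer orders are possible and overlap is rarer by construction. The shares over all genes in these settings are not given here, so these counts are not set against a background. Genes past the call rule numbered 931, against 1416 without a filter (more genes tested), 446 on log2(TPM + 1) and 503 to 2223 without single libraries; for the TPM and the single libraries the cause was not tested. DESeq2 called 95 genes at an adjusted p under 0.05, where edgeR called 0.

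Same-numbered libraries of the groups deviated together with correlations of 0.162, 0.0541 and 0.11, which is not above 0.1 for every pair, so the numbers were not taken to pair the libraries; the fit with a replicate block called the same 3 members and 1057 genes in all, with a members' median of -0.15. Of the 39 members, 26 kept their sign under all alternatives and 13 did not, none of these 13 called in either direction. Without single libraries their log2 fold changes ranged from -0.15 to 0.0212 (Ifih1), -0.0679 to 0.43 (Dhx58), -0.26 to 0.10 (Trim25), -0.27 to 0.10 (Uba7), -0.34 to 0.10 (Oasl2), -0.0622 to 0.26 (Ifit1), -0.45 to 0.15 (Ifit2), -0.0259 to 0.18 (Ifit3), -0.0822 to 0.0453 (Parp9), -0.0612 to 0.0607 (Dtx3l), -0.38 to 0.0876 (Rtp4) and -0.27 to 0.16 (Xaf1). With limma voom Trim25 was 0.029, Ifit2 0.0427, Parp9 0.0191 and Dtx3l -0.05998. With at least 10 counts in every library Dtx3l was -0.000388, and with the replicate block Xaf1 was -0.0098. On log2(TPM + 1) and log2(TPM + 0.1), where all genes shifted by -0.09 and -0.14, Ifit1 was -0.0304 and -0.0308, Ifit3 -0.0797 and -0.0913, Dtx3l -0.12 and -0.14, Xaf1 -0.14 and -0.27, and Rnf213 -0.0443 and -0.0507; Dhx58 was -0.00155 on the first. The cause of these sign changes was not tested.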
